A study of Mus musculus with 3 samples.

Results

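The SLAM family receptors are 9 immunoglobulin-like surface proteins of blood cells, encoded by Slamf1, Cd48, Cd244, Ly9, Cd84, Slamf6, Slamf7, Slamf8 and Slamf9. They were picked by gene symbol among 23282 entries, and all 9 symbols were listed once with reads in every library. The samples were 3 libraries of unsorted bone marrow cells, numbered vehicle replicates 1, 2 and 3, from male wild type C57BL/6 mice, an inbred laboratory strain. The animals were 6 weeks old and took sterile water by oral gavage over 28 days, their marrow was collected on day 29, and red cells were lysed before RNA extraction. The series sets this vehicle against the herbal drug Asari Radix et Rhizoma in a study of haematopoietic stem cells. Samples given the drug were not analysed here, and the comparisons below are between genes and between the libraries of 1 group. Whether each library came from its own mouse, or from pooled mice, is not given in the sources used here. The p-values therefore measure only the spread between these samples, which may be technical.

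Most SLAM receptors bind a second copy of themselves on a neighbouring cell, whereas Cd244 binds Cd48, which has no cytoplasmic tail and sits on a lipid anchor. The tails of most members carry tyrosine motifs that dock the small adaptors of the SAP family, encoded by Sh2d1a, Sh2d1b1 and Sh2d1b2, and through SAP the kinase Fyn. In mouse marrow, presence of the Slamf1 protein (CD150) and absence of the Cd48 protein are widely used together to pick out haematopoietic stem cells.

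Reads assigned to genes numbered 9168435, 8104828 and 9137125 in replicates 1, 2 and 3, and 14599, 14384 and 14507 entries had any. Levels are given as reads per 1000000 gene-assigned reads (CPM), and 3 reads, the limit that a count of 0 allows, were worth 0.327, 0.370 and 0.328 CPM. Intervals are exact Poisson 95% intervals of the reads, and they and this limit cover counting error only. Markers of the expected marrow lineages were present, with summed neutrophil markers at 8.56%, 6.63% and 8.81% of reads and erythroid markers at 6.64%, 9.86% and 9.97%. Over the 3 libraries summed, none of the 9 marker lists had a gene at 0 reads, and in single libraries Tnfrsf17 of the plasma cell list and Zbtb46 of the dendritic cell list were at 0 in replicate 1. On library totals the median entry of replicate 1 stood 0.10 log2 units above the mean of the libraries, that of replicate 2 at -0.02 and that of replicate 3 at -0.06. With trimmed-mean (TMM) scaling the 3 medians were 0.00, 0.00 and 0.01.

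All 9 genes lie on chromosome 1 of GRCm38 (mm10), between 171559193 and 172590568, a stretch of 1031 kb. Cd244 (171559193-171609746, plus strand, listed as Cd244a in GENCODE), Ly9 (171588624-171607410, minus), Slamf7 (171632403-171653035, minus), Cd48 (171682009-171705258, plus), Slamf1 (171767127-171801184, plus), Cd84 (171839697-171890718, plus) and Slamf6 (171917515-171953170, plus) follow each other within 394 kb. Slamf9 (172475358-172478575, plus) and Slamf8 (172581758-172590568, minus) lie 522 kb or more beyond Slamf6. Promoters in the RefSeq table for GRCm38.p6, from 250 bases before to 50 after the gene start, matched 8 of 9 members. Ly9 had no entry, and the entry of Slamf7 is at a start inside its GENCODE span. The letters GAGGAA, the core bound by ETS factors of the PU.1 type that direct myeloid and B cell genes, were searched on both strands and occurred in 4 of 8 member promoters, those of Cd84, Cd244, Slamf8 and Slamf9. Among all 32851 promoters of this length, 28.3% held them. The 4 are shown because their matches all fall near the start, and because Slamf8 and Slamf9 were both called as lowest in replicate 1 in the values below. Cd84 and Cd244 were not called, and a link between the match and the levels was not tested. Each is written in the direction of its gene, with the match in capitals. TTCCTC is the same motif on the other strand.
Cd84 (chr1:171839447-171839746, plus strand): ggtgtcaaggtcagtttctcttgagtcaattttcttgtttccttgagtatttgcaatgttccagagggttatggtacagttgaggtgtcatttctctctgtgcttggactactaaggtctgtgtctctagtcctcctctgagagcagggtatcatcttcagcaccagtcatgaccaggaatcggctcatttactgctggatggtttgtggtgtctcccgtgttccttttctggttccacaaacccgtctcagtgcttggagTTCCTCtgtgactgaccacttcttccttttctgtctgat
Cd244 (chr1:171558943-171559242, plus strand): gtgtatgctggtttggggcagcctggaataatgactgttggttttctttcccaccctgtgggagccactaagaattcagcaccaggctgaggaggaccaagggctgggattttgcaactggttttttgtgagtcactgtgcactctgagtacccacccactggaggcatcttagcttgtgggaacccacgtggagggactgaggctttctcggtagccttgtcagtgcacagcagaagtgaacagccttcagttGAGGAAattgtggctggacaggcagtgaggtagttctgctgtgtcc
Slamf8 (chr1:172590519-172590818, minus strand): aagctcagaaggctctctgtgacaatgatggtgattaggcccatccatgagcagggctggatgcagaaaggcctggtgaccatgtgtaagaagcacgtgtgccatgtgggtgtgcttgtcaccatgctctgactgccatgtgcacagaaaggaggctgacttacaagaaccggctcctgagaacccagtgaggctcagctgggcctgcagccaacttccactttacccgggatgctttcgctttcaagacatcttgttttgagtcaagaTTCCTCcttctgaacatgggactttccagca
Slamf9 (chr1:172475110-172475409, plus strand): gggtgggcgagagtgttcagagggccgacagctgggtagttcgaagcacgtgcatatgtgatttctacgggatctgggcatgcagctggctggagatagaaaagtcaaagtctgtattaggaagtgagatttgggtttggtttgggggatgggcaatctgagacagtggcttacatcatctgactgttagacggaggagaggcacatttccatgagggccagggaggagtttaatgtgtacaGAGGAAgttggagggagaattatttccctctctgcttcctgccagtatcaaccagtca

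The capitals begin at base +12 from the start in Cd84, +5 in Cd244, +20 in Slamf8 and -8 in Slamf9, counted at the leftmost base with the start as +1. Matches beginning within 25 bases of the start were present in 4 of 8 member promoters against 6.04% of all promoters, a window that was chosen after the positions had been seen. The AP-1 letters TGANTCA were present in 4 of 8 (Cd244, Cd84, Slamf7 and Slamf8) against 7.81% of all promoters, and shared no base with a GAGGAA match. In Slamf8 the AP-1 match begins at +10, just ahead of the capitals. The RUNX letters TGTGGT were present in Cd48 and Cd84, 2 of 8, against 16.8%. The interferon-response core GAAANNGAA was found in Cd84 and Slamf8, also 2 of 8, against 8.56%. Neither set shared bases with the capitals. E-box letters CANNTG were present in 8 of 8 against 72.3%, and 1 of these matches, in Cd244, shared 1 base with the capitals. The C/EBP letters TTGCNNAA were present in 1 of 8, Cd244, against 10.8%, and CCAAT in 1 of 8, Slamf6, against 37.4%. The GATA letters AGATAA, the GC box GGGCGG, the TATA letters TATAAA and the STAT letters TTCNNNGAA were present in 0 of 8, against 11.2%, 35.7%, 13.6% and 8.30%. The member promoters held 1 to 7 CpG dinucleotides, against a median of 7 over all promoters. A match is a run of letters, and no binding was measured here.

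Cd84 and Slamf7 took most of the SLAM family reads in these marrow libraries, and Slamf1, the receptor of the stem cell code, was among the low members. The 9 genes together took 1313, 1252 and 1247 reads in replicates 1, 2 and 3, or 0.0143%, 0.0154% and 0.0136% of all reads (exact Clopper-Pearson 95% intervals 0.0136 to 0.0151, 0.0146 to 0.0163 and 0.0129 to 0.0144). Their mean was 0.0145% ± 0.000909 (SD, n = 3). Of the family's reads, Cd84 and Slamf7 together held 69.8%, 66.1% and 67.3%. In bulk RNA, fewer cells of a type and less RNA per cell cannot be told apart.

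By mean CPM, with no length correction since the kit is labelled as one that reads transcript ends, the order was Cd84 (49.97), Slamf7 (48.0), Ly9 (16.1), Cd48 (13.3), Cd244 (4.27), Slamf1 (3.77), Slamf6 (3.69), Slamf8 (3.38) and Slamf9 (2.22). Cd84 and Slamf7 overlapped across libraries. Slamf7 stood 2.98-fold above Ly9 without overlap, and Cd48 stood 3.12-fold above Cd244 without overlap. Ly9 exceeded Cd48 by 1.21-fold, with the lowest Ly9 library at 15.5 CPM and the highest Cd48 library at 14.8. From Cd244 down to Slamf9 every neighbouring pair overlapped, so the order of the lowest 5 is not resolved by 3 libraries. Divided by the length of the longest principal transcript, the order became Cd84 (15.2 CPM per kilobase), Slamf7 (12.1), Cd48 (11.2), Ly9 (6.48), Slamf8 (2.04), Slamf9 (1.69), Slamf6 (1.48), Slamf1 (1.40) and Cd244 (1.13). On this scale Cd84 and Slamf7 no longer overlapped, Cd48 and Ly9 traded places without overlap, and the lowest 5 again overlapped from neighbour to neighbour. Cd84 and Slamf7 each have 2 principal transcripts, the shorter of 1019 and 1082 bases. Their separation was seen with the longest ones, and levels with the shorter ones were not computed. Both scales are given because the kit's catalogue number leaves its type in doubt, and both put the same 4 genes above the same 5. Divided by the gene span instead, a scale added after seeing the data, Slamf9 (0.691 CPM per kilobase) stood above Cd48 (0.572), so that grouping does not hold on every scale.

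**Figure D1:**
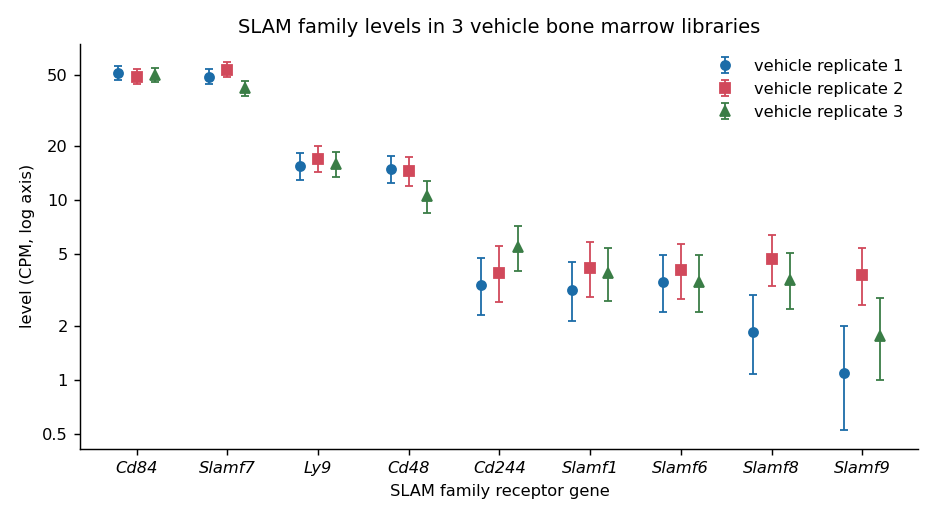
Level of each SLAM family gene in CPM (log axis) in vehicle replicates 1, 2 and 3, with bars for the exact Poisson 95% interval of its reads. Cd84 and Slamf7 lie between 41.9 and 53.3 CPM in all libraries, Ly9 and Cd48 between 10.5 and 17.03, and the other 5 genes between 1.09 and 5.47.

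For each gene, the reads of 1 library were set against those of the other 2 in a two-sided exact binomial test of counting noise, with Benjamini-Hochberg adjustment over 11833 entries of at least 30 reads. At an adjusted p of at most 0.05, 4 of 9 members were called, namely Cd48, Slamf7, Slamf8 and Slamf9. Over all entries tested 56.5% were called, and over the 8039 entries in the members' range of read numbers 50.8%. The members' count is near these shares and is not a result about the family. With TMM scaling 3 of 9 members were called, without Cd48, against 51.8% of all entries.

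Cd48 was lowest in replicate 3, while its receptor Cd244 had its highest value there and did not pass the test. Cd48 had 136, 118 and 96 reads in replicates 1, 2 and 3, or 14.8, 14.6 and 10.5 CPM, and deposited log2 values of 3.83, 3.93 and 3.51. Replicates 1 and 2 were level and replicate 3 was low, with a highest library 1.41 times the lowest (exact 95% interval 1.08 to 1.85). The difference was called (exact binomial test, adjusted p = 0.0285). The call ended with TMM scaling (0.144), without replicate 3 (0.945) and without replicate 1 (0.0554). Cd244, whose protein is also called 2B4 and is found on natural killer cells, mast cells and some progenitors, had 31, 32 and 50 reads (exact intervals 21.1 to 44.0, 21.9 to 45.2 and 37.1 to 65.9). These were 3.38, 3.95 and 5.47 CPM and deposited log2 values of 2.004, 2.28 and 2.68, and the difference did not pass the test (exact binomial test, adjusted p = 0.163). Its highest library was 1.62 times its lowest (1.01 to 2.62), a pair picked for being the extremes. The same holds for every interval of highest over lowest library given here. Because of that choice their coverage is not 95%, and they add nothing to the test of a gene. Cd48 and Cd244 do not overlap each other, but the span of Cd244 in GENCODE contains Ly9 on the opposite strand, with 0 shared exon bases. The span of Cd48 overlaps Gm37010 on the same strand, also with 0 shared exon bases. No source used here gives the strand setting or the counted region, so reads of Ly9 and of Cd244 introns could not be separated. The same holds for Gm37010 and Cd48 where their spans overlap.

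Slamf1 was lower than Cd48 in every library, as levels of whole marrow. Slamf1 had 29, 34 and 36 reads (exact intervals 19.4 to 41.6, 23.5 to 47.5 and 25.2 to 49.8), or 3.16, 4.195 and 3.94 CPM, with deposited log2 values of 1.93, 2.35 and 2.29. The intervals overlap, and no difference between libraries passed the test (exact binomial test, adjusted p = 0.969). The highest library was 1.33 times the lowest, with an interval from 0.784 to 2.26, and differences inside it were not detectable at this depth. The ratio of Cd48 to Slamf1 reads was 4.69, 3.47 and 2.67 in replicates 1, 2 and 3. On the log2 scale, with 0.1 CPM added to each, the difference was 2.19, 1.77 and 1.39, with a mean of 1.79 ± 0.40 (SD, n = 3). It was above 0 in 3 of 3 libraries, and the smallest two-sided exact sign-flip permutation p that 3 libraries can give is 0.25. Per kilobase of transcript the mean rose to 2.91, since the Cd48 transcript (1.186 kb) is shorter than that of Slamf1 (2.693 kb).

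Other surface genes used to sort stem and progenitor cells differed between libraries in several cases. The 3 most abundant of a list of 10 were Itga2b, the megakaryocyte integrin whose protein is CD41, at 54.8, 35.2 and 41.3 CPM, the sialomucin gene Cd34 at 40.1, 40.6 and 41.5 CPM, and the tetraspanin gene Cd9 at 47.0, 34.8 and 27.3 CPM. Itga2b (exact binomial test, adjusted p = 8.90e-08) and Cd9 (4.06e-09) were higher in replicate 1 than in the others, and Cd34 did not pass the test (adjusted p = 1). The 6 megakaryocyte markers, Itga2b among them, summed to 0.0375%, 0.0309% and 0.0268% of reads, also highest in replicate 1. Of the 5 tested, 4 were called and highest there. Of all entries tested, 56.5% were called and 49.2% were highest there, called or not. The share both called and highest there was not computed, so 4 of 5 has no matching share. Among the 4 were Pf4 (174, 162 and 136 CPM), highest in replicate 2 with TMM scaling, and Ppbp (132, 95.7 and 74.6 CPM). The other, Gp9, had 11.8, 14.3 and 14.6 CPM. It did not pass the test on totals (exact binomial test, adjusted p = 0.330) but did with TMM scaling (0.0491). The part of megakaryocytes in the Itga2b and Cd9 values was not tested. Of the list, 6 of the 9 genes tested were called, against 56.5% of all entries. Of the 9, 1 was called and lowest in replicate 1, 1 in replicate 2 and 4 in replicate 3. Of all entries tested, 8.82%, 21.4% and 26.2% were called and lowest in those libraries. The count was 8 of 9 with TMM scaling, median-of-ratios scaling, the authors' scaling or totals without Rn45s and globin. Each added Kit and Ly6a, which fall outside the naming rule, and 51.8% to 52.8% of all entries were called with these settings. Without replicate 1 the count was 2 of 8 tested, against 34.8% of all entries, and Itga2b was no longer called (exact binomial test, adjusted p = 0.102). Procr, a gene of very early stem cells that falls outside the naming rule, had 0, 0 and 3 reads, so at this depth its level was at the limit that a count of 0 allows.

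Among the receptors that bind themselves, Cd84 was the most even of the family and Slamf7 was called. Cd84, found on B cells, platelets, mast cells and macrophages, had 469, 396 and 456 reads, or 51.2, 48.9 and 49.9 CPM, with deposited log2 values of 5.54, 5.60 and 5.66. Its coefficient of variation (CV) of 2.30% was below the 4.77% that counting alone gives (exact binomial test, adjusted p = 1). Slamf7, found on plasma cells, natural killer cells and activated macrophages, had 447, 432 and 383 reads, or 48.8, 53.3 and 41.9 CPM, with deposited log2 values of 5.47, 5.73 and 5.41. It was lowest in replicate 3 and highest in replicate 2, 1.27-fold apart (exact 95% interval 1.11 to 1.46), a difference that was called on totals (exact binomial test, adjusted p = 0.0106) and with TMM scaling (0.0108). Without replicate 2 it was 0.0729 and without replicate 3 it was 0.304, so the call rests on both. Slamf7 shares 423 exon bases with Gm37787, a gene on the other strand, and without a known strand setting reads from the 2 cannot be told apart.

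Ly9, a receptor of T and B cells, had 142, 138 and 145 reads, or 15.5, 17.03 and 15.9 CPM and log2 values of 3.89, 4.14 and 4.06, with a CV of 4.97% against 8.42% from counting alone. Slamf6, a receptor of T, B and natural killer cells, had 32, 33 and 32 reads (exact intervals 21.9 to 45.2, 22.7 to 46.3 and 21.9 to 45.2), or 3.49, 4.07 and 3.502 CPM and log2 values of 2.04, 2.31 and 2.16. Neither differed between libraries past the test (exact binomial test, adjusted p = 1 for both). The highest library exceeded the lowest by 1.10-fold in Ly9 (0.863 to 1.40) and 1.17-fold in Slamf6 (0.695 to 1.96), a wider interval in Slamf6, which has fewer reads.

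Marker sums of B cells and plasma cells were also lowest in the library where Cd48 and Slamf7 were lowest. The 10 B cell markers summed to 0.0691%, 0.0676% and 0.0572% of reads and the 6 plasma cell markers to 0.0192%, 0.0181% and 0.0144%, both lowest in replicate 3, also with TMM scaling. Of these lists, 4 of 10 and 2 of 5 tested genes were called and lowest in replicate 3, against 26.2% of all entries called and lowest there. The 12 T and NK cell markers summed to 0.00868%, 0.00783% and 0.00963%, highest in replicate 3, but its members went different ways. The T cell genes Cd3d (6.11, 8.14 and 12.8 CPM) and Cd4 (1.64, 3.82 and 5.36 CPM) and the cytotoxic granule gene Nkg7 (51.5, 36.2 and 55.3 CPM) were called and highest in replicate 3. The natural killer receptor genes Klrd1 (5.89, 8.51 and 2.63 CPM) and Ncr1 (25, 15 and 2 reads) were called and lowest there, and Prf1, with 9, 5 and 1 reads, was not tested. Klrb1c, another natural killer receptor gene, had 4.25, 5.55 and 6.57 CPM and did not pass the test. These genes were picked with their values in view. Summed over the libraries no gene of the 3 lists was at 0, and the part of these cells in the Cd48 and Slamf7 values was not tested.

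Slamf8 and Slamf9, the members with short tails that lack the tyrosine motifs, were the least even of the family, and both were lowest in replicate 1 and highest in replicate 2. Slamf8, a macrophage receptor that restrains oxidant production, had 17, 38 and 33 reads (exact intervals 9.90 to 27.2, 26.9 to 52.2 and 22.7 to 46.3), or 1.85, 4.69 and 3.61 CPM. Its deposited log2 values were 1.41, 2.48 and 2.19, so replicate 1 stood apart from the other libraries. The highest library was 2.53 times the lowest (exact 95% interval 1.39 to 4.78), and the difference was called on totals (exact binomial test, adjusted p = 0.0149) and with TMM scaling (0.00479). It was not called without replicate 1 (0.433) or without replicate 2 (0.0589).

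Slamf9, described on macrophages and plasmacytoid dendritic cells, had 10, 31 and 16 reads (exact intervals 4.80 to 18.4, 21.1 to 44.0 and 9.15 to 26.0). These were 1.09, 3.82 and 1.75 CPM and deposited log2 values of 0.98, 2.24 and 1.45, with replicate 2 high. The 3.51-fold range (exact 95% interval 1.68 to 8.02) was the widest of the 9 members and was called on totals (exact binomial test, adjusted p = 0.00216) and with TMM scaling (0.00145). Without replicate 2 the gene fell under the minimum of 30 reads, and its mean level moved from 2.22 ± 1.43 CPM (SD, n = 3) to 1.42. Both genes were called and lowest in replicate 1, which held for 8.82% of all entries, and none of the 9 members was called and lowest in replicate 2, where 21.4% of all entries were.

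Beside these 2 genes, the 10 monocyte and macrophage markers summed to 0.134%, 0.131% and 0.147% of reads, lowest in replicate 2, and the 8 dendritic cell markers to 0.0314%, 0.0319% and 0.0292%, lowest in replicate 3. With TMM scaling the macrophage list was lowest in replicate 1, at 0.125%, 0.134% and 0.154%. The basophil and mast cell list summed to 0.0628%, 0.0415% and 0.0476%. Zbtb46 of the dendritic cell list had 0, 11 and 6 reads, too few for a test, and no other gene of these lists was at 0 in a library. Of the 7 dendritic cell genes tested 4 were called, 1 lowest in replicate 1, 2 in replicate 2 and 1 in replicate 3. Among all entries, 8.82%, 21.4% and 26.2% were called and lowest in those libraries. The part of these lists in the Slamf8 and Slamf9 values was not tested.

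**Figure D2:**
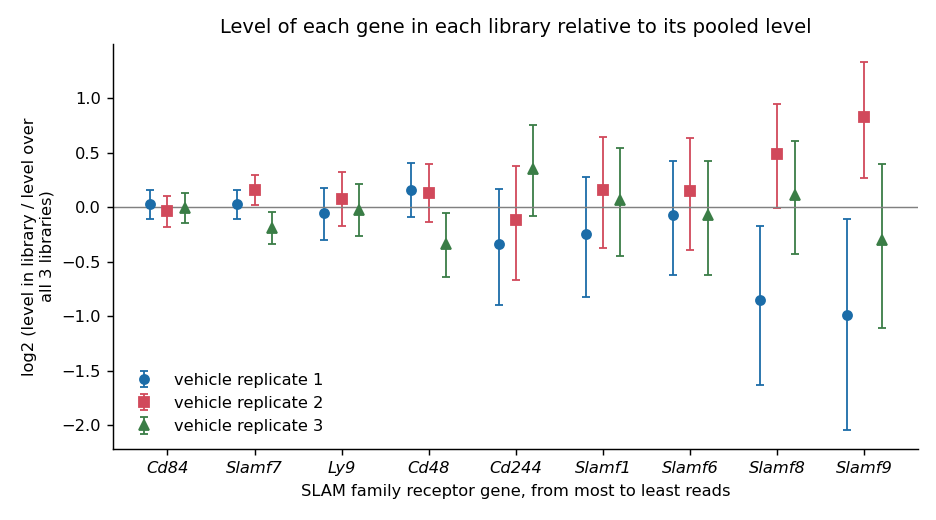
Log2 of each gene's level in a library over its level in all 3 libraries pooled, with bars for the exact Poisson 95% interval of the library's reads. Points of Cd84 and Ly9 lie close to 0, replicate 3 lies lowest for Cd48 and Slamf7, and replicate 1 lies lowest for Slamf8 and Slamf9.

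Across the 9 members the median CV between libraries was 14.3%, from 2.30% in Cd84 to 64.2% in Slamf9, against a median of 17.1% over all entries tested and 18.8% over entries in the members' read range. In 5 of 9 members (Slamf9, Slamf8, Cd244, Cd48 and Slamf7) the CV exceeded what counting alone gives, as it did in 10154 of 11833 entries. Cd84, Ly9, Slamf6 and Slamf1 were below it. Slamf9 and Slamf8 also had the fewest reads, and counting alone gave them CVs of 23.0% and 18.5%, under the 64.2% and 42.3% that were measured.

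**Figure D3:**
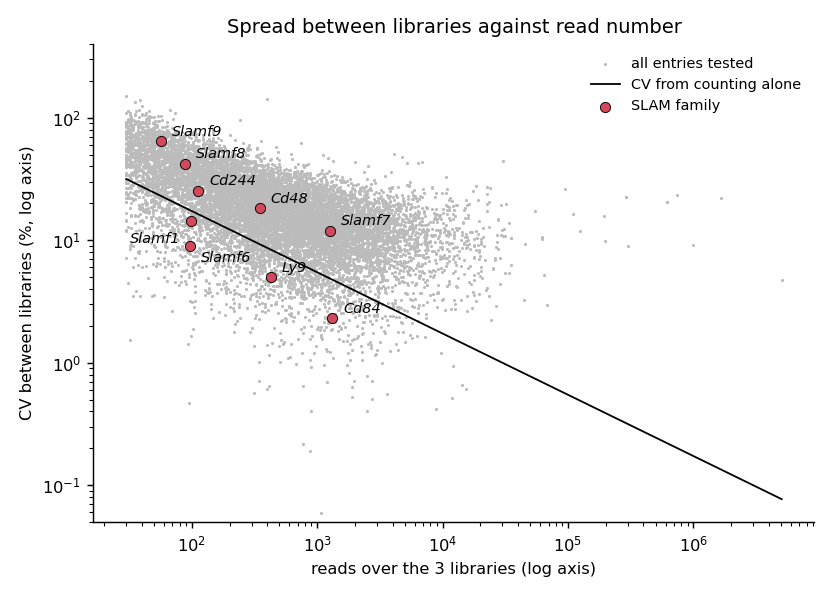
CV between libraries (%, log axis) against reads over the 3 libraries (log axis) for all entries tested (grey) and the SLAM family (red), with a line for the CV that counting alone gives at equal depths. Slamf9, Slamf8, Cd244, Cd48 and Slamf7 lie above the line, and Slamf1, Slamf6, Ly9 and Cd84 lie below it.

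By direction, 6 of 9 members were lowest in replicate 1, 1 in replicate 2 and 2 in replicate 3, while over all entries tested 20.02% were lowest in replicate 1, 37.6% in replicate 2 and 42.4% in replicate 3. Highest values stood in replicate 1 for 2 members, in replicate 2 for 6 and in replicate 3 for 1, against 49.2%, 27.9% and 22.8% of all entries. With TMM scaling 7 members were lowest in replicate 1 and 7 highest in replicate 2, against 3926 and 3993 of the 11833 entries tested. Most of these differences were within counting error, since only 4 members were called. Neutrophil marker sums were lowest in replicate 2 and erythroid sums in replicate 1, as given above, and their part in the members' directions was not tested.

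Of the SAP family adaptors that SLAM tails recruit, Sh2d1b1 alone had enough reads to be tested. Sh2d1b1, which encodes the adaptor EAT-2 of natural killer and myeloid cells, had 42, 44 and 22 reads, or 4.58, 5.43 and 2.41 CPM. It was lowest in replicate 3, the library in which Cd48 and Slamf7 were lowest and Cd244 highest (exact binomial test, adjusted p = 0.0110), and without replicate 3 it was not called (0.586). Being called and lowest in replicate 3 held for 26.2% of all entries tested. Sh2d1a, which encodes SAP itself, the adaptor of T and natural killer cells, had 0, 6 and 0 reads. Sh2d1b2, the neighbouring copy of EAT-2, had 0 reads in all libraries, which allows a level of at most 0.114 CPM over the pooled reads if its reads could be counted at all. The SAP partner kinase Fyn had 41.7, 42.0 and 32.8 CPM, lowest in replicate 3 (exact binomial test, adjusted p = 0.00318), but not called with TMM scaling (0.0739) or without replicate 3 (0.972). It falls outside the naming rule.

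Of the kinases that act beside SLAM receptors 5 of 6 were called, as were 4 of 4 phosphatases and 7 of 10 downstream genes, against 56.5% of all entries. With TMM scaling these were 3 of 6, 3 of 4 and 6 of 10, against 51.8%. Among the kinases, Lyn had 282, 251 and 212 CPM and Csk, the kinase that restrains Src family members, had 79.8, 68.5 and 77.3 CPM. Lyn was highest in replicate 1 and lowest in replicate 3 (exact binomial test, adjusted p = 4.86e-16). Csk was lowest in replicate 2 (exact binomial test, adjusted p = 0.0342), and was not called with TMM scaling (0.104) or when replicate 1 (0.0860) or replicate 2 (0.667) was left out. The 4 phosphatase genes were led by Ptprc, encoding CD45, at 642, 527 and 581 CPM (exact binomial test, adjusted p = 3.19e-16). Ptpn6, encoding SHP-1, had 223, 205 and 229 CPM (exact binomial test, adjusted p = 0.00562, and 0.492 without replicate 2). Ptpn11, encoding SHP-2, had 68.1, 73.4 and 52.9 CPM (exact binomial test, adjusted p = 1.08e-06, and 0.304 without replicate 3).

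Downstream of the receptors, the 3 most abundant of 10 genes were the adaptor Grb2 at 194, 152 and 158 CPM, the lipid kinase subunit Pik3r1 at 130, 131 and 120 CPM and the Ras inhibitor Rasa1 at 107, 122 and 137 CPM. Grb2 was highest in replicate 1 (exact binomial test, adjusted p = 1.54e-11, and 0.463 without replicate 1). Rasa1 was lowest in replicate 1 and highest in replicate 3 (8.54e-06), and Pik3r1 did not pass the test (0.1004). None of the 3 tested partner genes, of the related CD2 and nectin-binding receptors, was called. Cd2, another ligand of Cd48 in mice, had 41.1, 39.6 and 36.0 CPM (exact binomial test, adjusted p = 0.341). Cd226 was at 5.02, 4.69 and 4.38 CPM and Cd96 at 1.85, 1.85 and 1.97 CPM (exact binomial test, adjusted p = 1 for both), while Crtam, with 2, 15 and 7 reads, was below the minimum for a test. In all, 17 of 24 tested signalling and partner genes were called (70.8%, against 56.5% of all entries), and 13 with TMM scaling (54.2%, against 51.8%). With a minimum of 100 reads 17 of 22 were called, against 60.6% of all entries. Calling depends on read number, and no share here was matched to the read numbers of these genes. Of the 24 tested, 11 were called and lowest in replicate 2, 5 in replicate 3 and 1 in replicate 1. Of all entries tested, 21.4%, 26.2% and 8.82% were called and lowest in those libraries. With TMM scaling 7 of the 24 were called and lowest in replicate 2, against 17.8% of all entries tested.

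**Figure D4:**
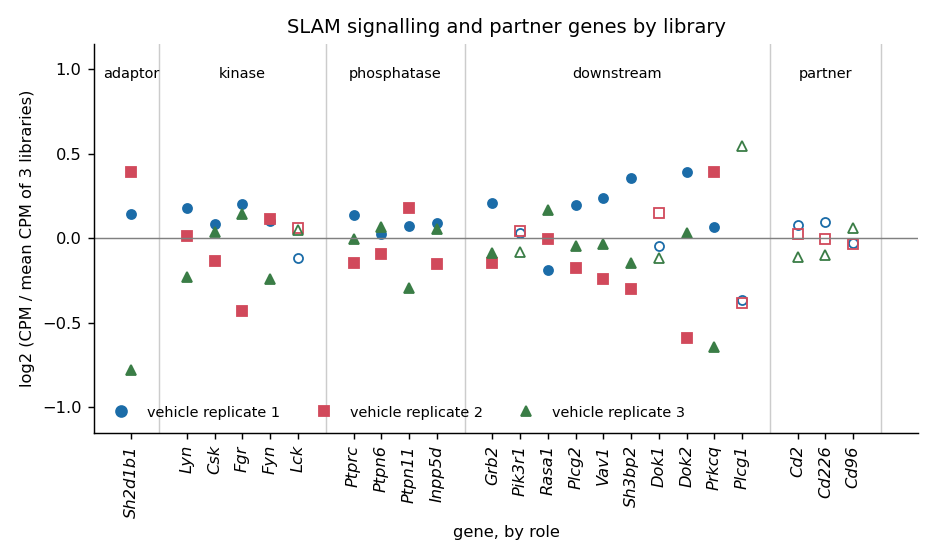
Log2 of each library's CPM over the mean CPM of the 3 libraries for 23 of the tested signalling and partner genes, grouped by role, with filled symbols for genes that were called and open symbols for those that were not. Replicate 2 lies lowest for 10 of the called genes drawn, and all 3 partner genes have open symbols.

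Levels across the locus were mixed. From Cd244 to Slamf8 the files listed 28 entries, 9 of them members, and the 19 others had a median of 3.68 CPM, with no length correction, against 4.27 for the members. Of these 19, 4 had 0 reads and 8 had fewer than 30, while Tagln2, an actin-binding protein gene between Slamf9 and Slamf8, reached 427 CPM. By contrast all 9 members had at least 57 reads.

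**Figure D5:**
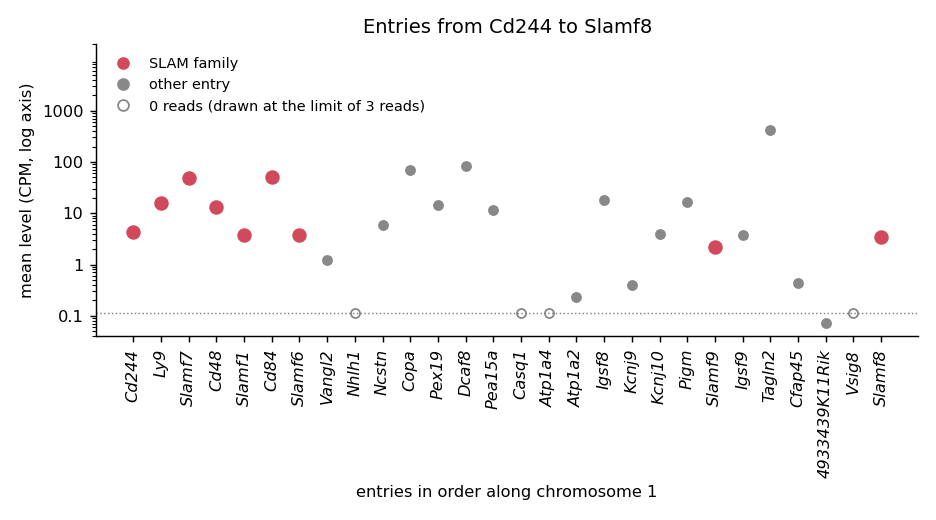
Mean level (CPM, log axis) of each entry from Cd244 to Slamf8 in order along chromosome 1, with SLAM family genes in red and other entries in grey. Open grey circles mark entries with 0 reads, drawn at the dotted line of 3 reads over all libraries (0.114 CPM). Members and other entries span overlapping ranges, with Tagln2 at 427 CPM above all of them.

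The entries whose pattern over the 3 libraries lay nearest to that of Cd84, the member with most reads, were Rlf (89.8, 86.0 and 87.7 CPM), Ptpra (49.95, 47.5 and 48.7 CPM) and Tmem14c (219, 210 and 213 CPM). Their distances, over centred log2 CPM, were 0.0031, 0.0049 and 0.0064 among 9779 entries compared. A distance of 0.1 or less was reached by 800 entries, so a pattern over 3 libraries does not single out partners of Cd84.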

How the data were processed

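The 3 vehicle libraries were built from 500 ng of Trizol-extracted RNA with a Lexogen QuantSeq kit, per the labels' protocols. The catalogue number given there may belong to another Lexogen kit, so reads need not come from transcript ends. Per the submitters' processing notes, Bowtie2, bedtools and mm10 were used. Not given in the sources used here are their versions and roles, the annotation, the counted region, the strand setting and how values were normalized. The authors deposited a symbol and a log2 value per entry, which the values show to be log2(x + 1), where x counts reads against 1000000 of a library size of their own. That size was 1.12, 1.03 and 1.01 times the reads recovered in replicates 1, 2 and 3. For 100% of values x came out as whole reads (tolerance 1e-06), so whole reads were recovered for 23282 entries with 23238 distinct symbols, of which 16040 had reads.

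The design had assumed read counts. As the files hold log2 values, the exact binomial tests ran on the recovered reads, with expected shares from library totals. The smallest of the 3 p-values of an entry was multiplied by 3 and adjusted by Benjamini-Hochberg over 11833 entries with at least 30 reads. Scripts ran in Python 3.11.15 with numpy 2.4.6, scipy 1.17.1, pandas 2.3.3 and matplotlib 3.10.9, and the test was first tested on simulated data. Positions and transcript lengths are from GENCODE for GRCm38, and promoters from RefSeq for GRCm38.p6. Rn45s and globin entries stayed in the totals.

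Named genes were the 9 members, the 3 SAP family adaptors, the 3 most abundant genes of each signalling, partner and stem cell list, and the 3 entries nearest in pattern to the member with most reads. The members and lists were chosen with earlier results of these data known. Procr, Fyn, Tagln2, Crtam, Kit, Ly6a and the cell type markers named, outside that rule, were picked with their values in view, and 1 kinase gene that the rule takes in is not reported here. Alternatives covered the scaling, the library total, the length, the pseudocount, the minimum of reads, a chi-square test and leaving out each library.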

Additional observations from a re-analysis of the deposited data

How the results depend on the processing

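Over 11 alternatives the count of called members was below 4 in 8 and unchanged in 3, and that of signalling and partner genes was below 17 in 7, unchanged in 2 and above it in 2. Scaling and library totals left 3 members and 13 to 15 signalling and partner genes. With a minimum of 100 reads 2 of 5 tested members were called, against 60.6% of all entries. Leaving out 1 library in turn left 1 to 2 members called, and 10 to 13 signalling and partner genes, while the share of all entries called was 34.8%, 39.0% and 38.5% without replicates 1, 2 and 3. Fewer libraries and reads enter those fits, and apart from this the cause was not tested. The mean log2 difference of Cd48 and Slamf1 stayed positive in each alternative tried for it. Levels are never negative, so a change of sign was not possible for them, and per kilobase of transcript Cd48 and Ly9 traded places. With Rn45s and globin left out of the totals the family held 0.0215% of reads, since the denominator shrinks, and Cd48 was not called (adjusted p = 0.0528, exact binomial test), as with median-of-ratios scaling (0.128) and the authors' scaling (0.114). The log2 difference of Cd48 and Slamf1 was 2.91 per kilobase of transcript, 1.58 with a pseudocount of 1 CPM and 1.81 with none. Per kilobase of gene span, an alternative chosen after seeing the data, Slamf7 had 2.33 CPM, Cd84 0.979, Slamf9 0.691, Cd48 0.572 and Cd244 0.0844. No paired analysis was possible because there is 1 group. Depth limits the 5 members with 57 to 113 reads, such as Slamf6, whose highest library over its lowest had an interval from 0.695 to 1.96.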
